A study of Rattus norvegicus with 18 samples.

Results

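The untreated cells that served as controls for PDS were compared with the untreated cells that served as controls for Phen-DC3. The members are the 6 libraries that the titles name as PDS control 1 to 3 and Phen-DC3 control 1 to 3, of 18 libraries in all, and they were chosen by label alone. The cells were nucleus pulposus cells from the gelatinous core of the intervertebral disc of Sprague Dawley rats aged 8 weeks, released from the tissue, grown in medium with 10% fetal bovine serum, and seeded 24 hours before the treatment period. In the treated groups of the study the cells then received, for 24 hours, 1 of 3 ligands of G-quadruplexes (folds of guanine-rich nucleic acid with stacked tetrads), namely PDS, Phen-DC3 and Braco-19. Each compound group and each of the 3 control groups holds 3 libraries. Both control groups carry the same strain, tissue, age and treatment label, "control", and differ in the labels by their title only. The labels give neither a vehicle nor a dose, nor the day on which a culture was grown, extracted or sequenced, so these cannot be told apart from the group. Repeats are described as biological in the design text, but no label says that the 3 libraries of a group came from separate animals or cultures, so p-values measure only the spread between these libraries, which may be technical.

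Nucleus pulposus cells make the proteoglycan-rich matrix that lets the disc hold water. Once placed in monolayer culture with serum they divide, and freshly plated disc cells are known to shift from cartilage-type matrix toward a fibroblast-like programme. A dividing cell copies its DNA in S phase, when the MCM helicase is loaded on origins, opened by CDC45 and GINS, and followed by polymerases, clamp loaders and enzymes that supply nucleotides. Most of these genes are transcribed under E2F factors as cells leave G1.

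The 6 libraries held 15715121 to 16988858 counts. Levels are given as CPM, counts scaled to library size with TMM factors. Of the markers fixed for nucleus pulposus, Foxf1 (34.7 to 39.8 CPM), Pax1 (73.7 to 80.0 CPM) and Cd24 (35.4 to 42.5 CPM) were present in all 6 libraries, Krt8 was at 9.99 to 16.1 CPM, and Krt19 and the notochord factor Tbxt were at 0 in all 6. Acan, which encodes aggrecan, the main disc proteoglycan, had 16 counts over the 6 libraries, and Krt18 had 1. The transcription factors Foxf1 and Pax1 thus matched the tissue label, and Acan, Krt18, Krt19 and Tbxt did not. Ptprc and C1qa (macrophages and other blood cells), Cdh5 (endothelium) and Hbb (red cells) were at 0 in the 6 libraries. The 17 macrophage markers summed to 109 to 115 CPM in PDS controls and 97.3 to 108 CPM in Phen-DC3 controls. Cd14 alone gave most of this, and 14 of the 17 were under 1 CPM in all 6 libraries, 5 of them at 0. The fibroblast marker list summed to 3245 to 3792 CPM in PDS controls and to 2582 to 3562 CPM in Phen-DC3 controls. In bulk RNA, fewer cells of a type and less RNA per cell cannot be told apart.

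The Phen-DC3 controls were less alike than the PDS controls. Squared differences between 2 libraries, per gene and relative to counting error, averaged 9.44 to 11.9 within the PDS controls and were 14.2 (controls 2 and 3), 20.1 (controls 1 and 2) and 38.2 (controls 1 and 3) within the Phen-DC3 controls. Phen-DC3 control 3 was at 7.37 from PDS control 1, closer than to either library of its own group, at 14.2 and 38.2. Phen-DC3 control 1 was the farthest from control 3 of its own group and from every PDS control, at 35.8, 56.5 and 52.7. The groups of libraries named by the labels are therefore not cleanly separate, and which gene differences are called depends on which of the 6 libraries are used.

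Of 14184 genes tested, 864 (6.09%) differed between the groups at a Benjamini-Hochberg adjusted p under a threshold of 0.05, by edgeR's quasi-likelihood test with 1 mean for each of the 6 groups and a spread shared by all 18 libraries. Such genes are referred to as called. PDS controls were higher in 226 genes (1.59%) and lower in 638 (4.50%). The differences were small, with a median log2 difference (PDS control minus Phen-DC3 control throughout) of 0.35 among the genes called higher and -0.55 among those called lower. The log2 difference was beyond 1 in 14 of the higher and beyond -1 in 43 of the lower genes, and 11 and 26 of these had a mean level under 3 on the log2 CPM scale. The 3 PDS controls lay all on 1 side of the 3 Phen-DC3 controls in 221 of the 226 and 579 of the 638, and in 3372 of all tested genes (23.8%).

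The number of called genes changed when 1 control library was left out, in 5 of 6 cases by more than 1.5 times in at least 1 direction. Without PDS control 2, edgeR called 7 genes higher and 2 lower. Without Phen-DC3 control 1 it called 16 and 21. Without Phen-DC3 control 2 it called 0 and 0, where 2650 genes had an unadjusted p under 0.05. Without PDS control 3 the counts were 40 and 221, and without PDS control 1 they were 231 and 704. Without Phen-DC3 control 3 they rose to 1058 higher and 1682 lower. A fit of the 6 libraries alone, with 4 residual degrees of freedom in place of 12, called 2 and 1, where 2539 genes had an unadjusted p under 0.05. None of the genes called in that fit was among the 864 called in the fit of all 18 libraries. The 94 named genes that were called kept their direction in each of 22 alternative settings. Their choice left little room for a reversal, since all were called in the main fit and most had groups without overlap. Of these 94, 9 were called in 1 and 54 in 2 of the 6 fits with a control library left out, 24 in 3, 6 in 4 and 1 in 5.

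**Figure D1:**
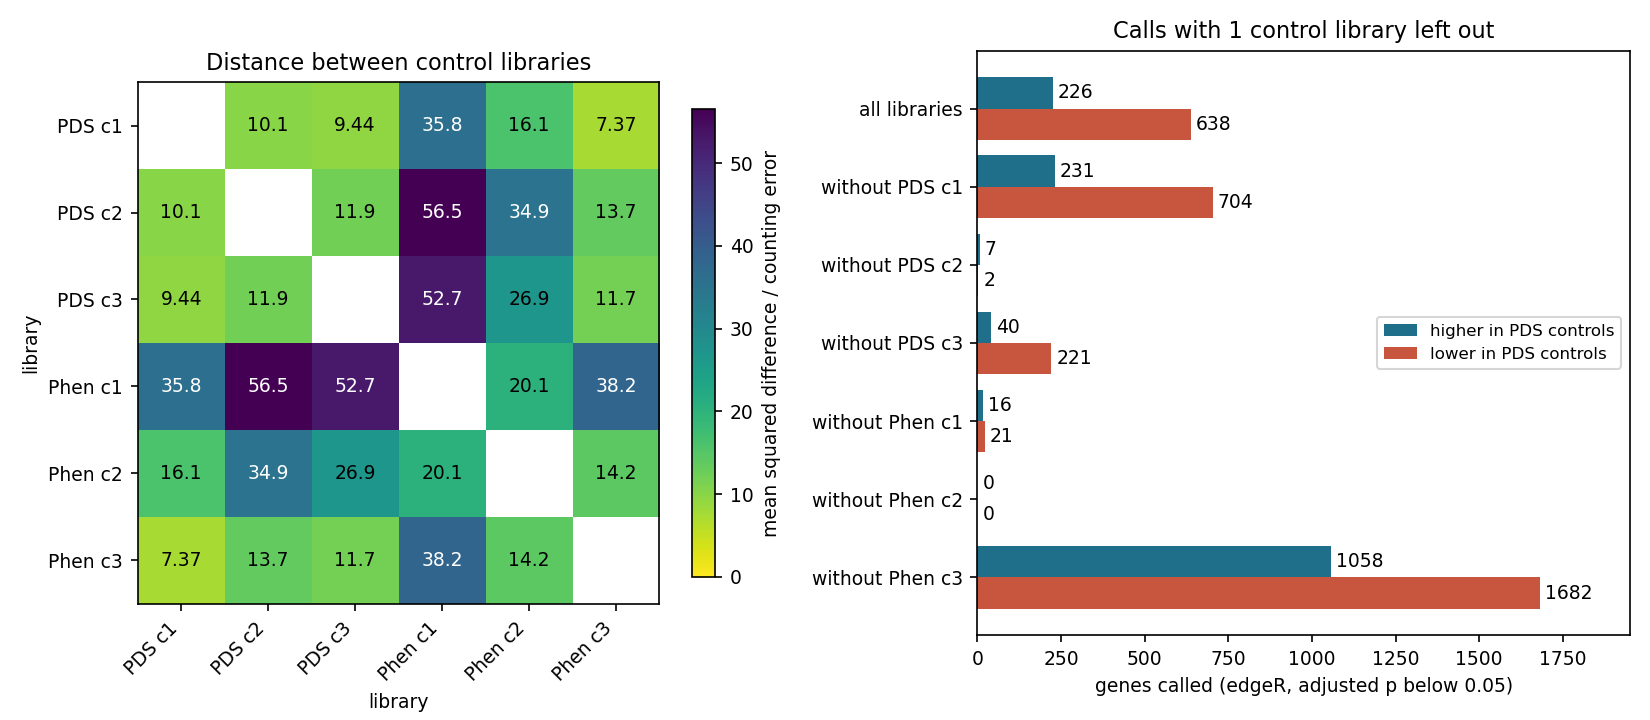
Left: mean squared difference between each pair of control libraries, divided by counting error, for PDS controls 1 to 3 (PDS c1 to c3) and Phen-DC3 controls 1 to 3 (Phen c1 to c3). It was taken over tested genes with a mean of at least 1 CPM over all libraries. Right: number of genes called higher (blue) and lower (red) in PDS controls with all libraries and with 1 control library left out. Phen-DC3 control 3 is nearer to PDS control 1 (7.37) than to its own group (14.2 and 38.2), and the counts of calls range from 0 to 1682.

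DNA replication was the list with the most genes called higher in PDS controls. Of 48 tested genes of this list, 17 were called higher and the other 31 were not called, against 1.59% of all tested genes called higher. The called genes had log2 differences of 0.23 to 0.50, which is 1.18-fold to 1.41-fold. The median over the 48 genes was 0.24, against -0.01 over all tested genes, and 43 of the 48 differences were positive. The groups did not overlap, with PDS controls higher, in 26 of the 48 genes and in 10.6% of all tested genes. The list was chosen with earlier results of these data known.

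The MCM2-7 complex is the ring-shaped helicase that opens DNA at the fork, and 5 of its 6 subunit genes were called higher. The promoters of the 4 subunit genes with the smallest p are shown because each holds E2F-type letters in the window used, from RefSeq on build GRCr8 with 250 bases before and 50 after the start, read 5′ to 3′ on the gene's strand. Capitals mark TTTGGCGC, TTTGCCGC, TTTCGCGC or TTTCCCGC on either strand, and a capital run longer than 8 letters holds matches on both strands that overlap. The windows are chr4:122918045-122918344 (minus strand) for Mcm2, chr9:30733697-30733996 (minus strand) for Mcm3, chr19:13488563-13488862 (plus strand) for Mcm5 and chr13:42404303-42404602 (minus strand) for Mcm6.
Mcm2: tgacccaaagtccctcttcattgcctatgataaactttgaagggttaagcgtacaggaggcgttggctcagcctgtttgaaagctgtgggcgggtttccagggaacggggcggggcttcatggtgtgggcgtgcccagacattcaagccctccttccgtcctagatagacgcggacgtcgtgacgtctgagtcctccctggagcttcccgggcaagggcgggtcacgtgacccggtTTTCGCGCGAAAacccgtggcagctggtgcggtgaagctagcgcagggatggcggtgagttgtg
Mcm3: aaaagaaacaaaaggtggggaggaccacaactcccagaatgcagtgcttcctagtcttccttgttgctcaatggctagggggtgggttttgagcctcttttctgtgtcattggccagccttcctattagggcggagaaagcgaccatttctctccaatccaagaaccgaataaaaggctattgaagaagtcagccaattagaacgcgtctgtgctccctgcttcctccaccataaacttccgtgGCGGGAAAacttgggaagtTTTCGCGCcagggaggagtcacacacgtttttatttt
Mcm5: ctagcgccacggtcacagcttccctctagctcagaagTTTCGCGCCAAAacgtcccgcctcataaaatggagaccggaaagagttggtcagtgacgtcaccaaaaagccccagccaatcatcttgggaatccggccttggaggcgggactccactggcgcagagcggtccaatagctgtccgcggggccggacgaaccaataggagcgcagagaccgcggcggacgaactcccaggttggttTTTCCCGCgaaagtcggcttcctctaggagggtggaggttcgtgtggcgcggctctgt
Mcm6: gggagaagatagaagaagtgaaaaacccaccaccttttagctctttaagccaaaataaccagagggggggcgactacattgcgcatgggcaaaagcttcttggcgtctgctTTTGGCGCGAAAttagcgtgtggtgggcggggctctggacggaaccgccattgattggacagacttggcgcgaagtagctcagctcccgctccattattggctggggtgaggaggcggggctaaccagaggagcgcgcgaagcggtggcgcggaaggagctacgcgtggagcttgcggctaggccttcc
These letters occurred in 16 of 39 replication genes with a promoter in the table (41.0%) and in 716 of all 33469 promoters (2.14%). They occurred in 6 of 16 promoters of called replication genes (37.5%) and in 10 of 23 of replication genes that were not called (43.5%). A match describes letters and is not a shown binding site.

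Mcm6, a subunit of the helicase ring, was at 127, 127 and 131 CPM in PDS controls 1 to 3 and at 101, 89.6 and 103 CPM in Phen-DC3 controls 1 to 3. The lowest PDS control was above the highest Phen-DC3 control, and the log2 difference was 0.39 (SE 0.06, adjusted p = 0.00882). Mcm6 was called in 5 of the 6 fits with a control library left out, more than any other named gene, and was lost without Phen-DC3 control 2. Mcm5, another ring subunit, was at 106, 119 and 98.4 CPM in PDS controls and at 76.2, 72.2 and 84.0 CPM in Phen-DC3 controls. Its groups did not overlap, and the log2 difference was 0.48 (SE 0.08, adjusted p = 0.0128). For Mcm3 the levels were 90.7, 94.3 and 83.6 CPM against 69.7, 60.1 and 69.8 CPM, with Phen-DC3 control 2 the lowest of the 6 and a log2 difference of 0.43 (SE 0.08, adjusted p = 0.0162). Mcm2 was at 90.3, 98.2 and 89.5 CPM against 77.3, 64.3 and 77.9 CPM, again with Phen-DC3 control 2 lowest, and differed by 0.34 on the log2 scale (adjusted p = 0.0192). Mcm7 differed by 0.23 (adjusted p = 0.0475). Mcm4 was the exception in the ring, at 78.6, 66.2 and 77.9 CPM against 82.3, 70.6 and 69.9 CPM. Its groups overlapped and the log2 difference was -0.00 (95% interval -0.18 to 0.18).

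Beyond the helicase, the called genes were spread over the fork. Cdc45, the factor that activates the loaded helicase, was at 18.9, 17.2 and 16.4 CPM in PDS controls and 13.5, 10.4 and 13.3 CPM in Phen-DC3 controls, a log2 difference of 0.50 (SE 0.12, adjusted p = 0.0275). The 4 GINS genes, its partners, were not called, with log2 differences of -0.08 to 0.42. None of the 5 origin binding and loading genes was called either. Among them Cdc6, which loads the MCM ring, differed by 0.48 with an adjusted p of 0.0613. The clamp loader genes Rfc3 (0.32) and Rfc5 (0.39), the polymerase alpha subunit Pola2 (0.38), the primase subunit Prim1 (0.30) and the polymerase delta catalytic subunit Pold1 (0.46) were called higher. Pola1, the catalytic subunit of polymerase alpha, was not called and lay the other way, with a log2 difference of -0.55 and an adjusted p of 0.0625. Pcna, the sliding clamp, was not called, with a log2 difference of 0.19.

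Of the 6 genes for nucleotide supply, 3 were called higher. Tk1, thymidine kinase, was at 242, 254 and 262 CPM in PDS controls and 186, 191 and 218 CPM in Phen-DC3 controls, and all 3 PDS controls were above all 3 Phen-DC3 controls (log2 difference 0.35, adjusted p = 0.0261). Rrm2, the regulated subunit of ribonucleotide reductase, differed by 0.31, and Dut, which removes dUTP, by 0.28. Tyms, thymidylate synthase, and Rrm1, the large subunit of ribonucleotide reductase, were not called, with log2 differences of 0.02 and 0.05. Ccne1, cyclin E1, which drives entry into S phase, was at 30.5, 31.1 and 29.7 CPM against 23.3, 20.0 and 24.5 CPM, a difference of 0.43 (adjusted p = 0.0166). Ccne2, cyclin E2, was not called and lay the other way (-0.27, adjusted p = 0.337), and E2f2, an E2F factor, was at 0.07 (adjusted p = 0.894). Of the genes that copy chromatin, Chaf1a, the large subunit of the histone chaperone CAF-1, differed by 0.47, and Uhrf1, which helps maintain DNA methylation, by 0.39, both called.

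The number of replication genes called changed with the control library left out. Of the 48 replication genes, 14 were called higher without PDS control 1, 1 without PDS control 2 and 10 without PDS control 3. The counts were 4 without Phen-DC3 control 1, 0 without Phen-DC3 control 2 and 23 without Phen-DC3 control 3, by the same edgeR test. At an unadjusted p under 0.05, 25 were higher without PDS control 2 and 24 without Phen-DC3 control 2, against 27 with all libraries. The median log2 difference of the list was 0.22 to 0.30 over these 6 fits. With all libraries and a correction of each library for its trend with gene length, edgeR called 16 of the 48 genes higher. This compares with 1.28% of all tested genes. Of the 17 genes called without the correction, 13 kept the call. Rfc3, Prim1, Rrm2 and Dut did not (adjusted p = 0.0766, 0.0881, 0.0854 and 0.132).

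**Figure D2:**
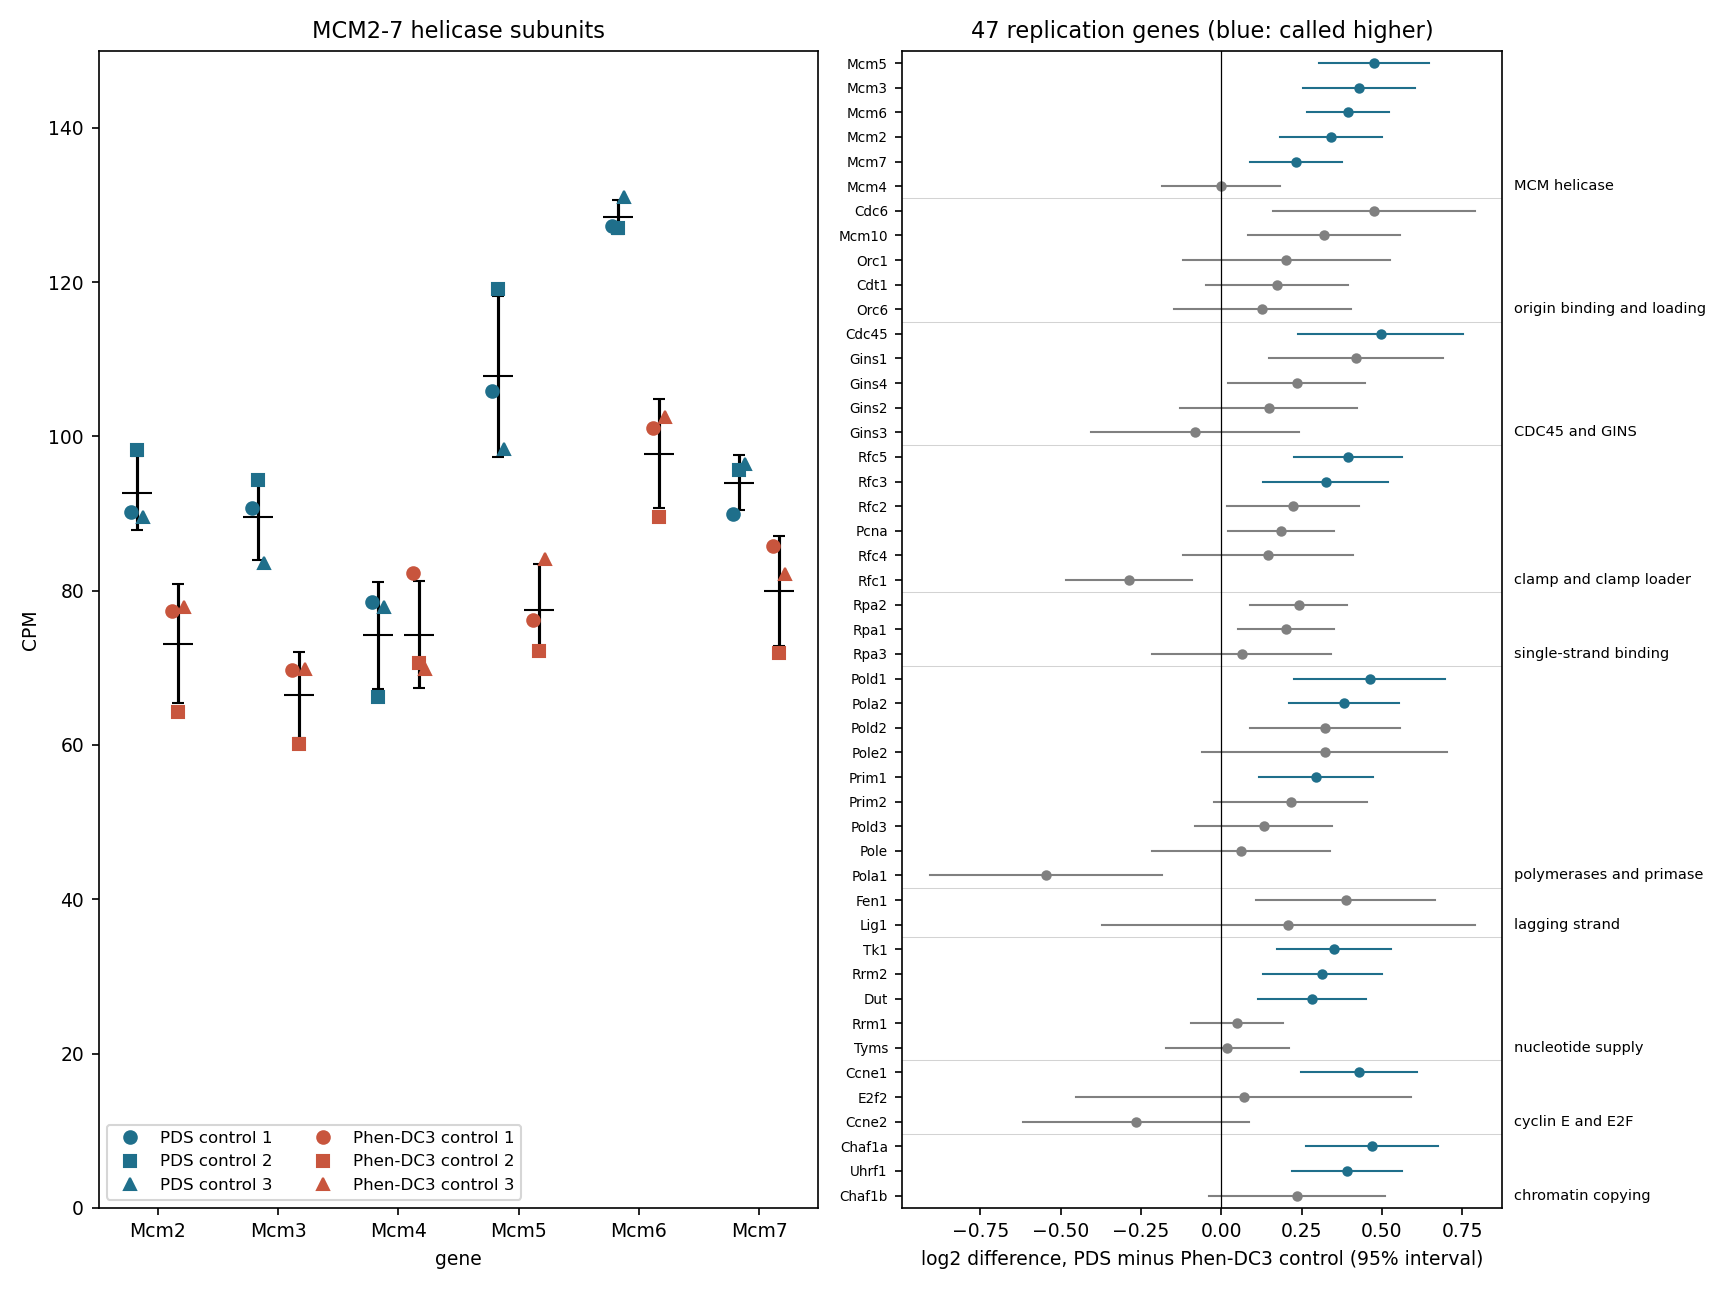
Left: CPM of the 6 helicase subunit genes in each control library (symbols give the replicate number, blue PDS controls, red Phen-DC3 controls), with mean and SD over 3 libraries. Right: log2 difference with its 95% interval for 47 of the 48 replication genes, grouped by role, with called genes in blue. Of the 6 subunits, Mcm4 alone shows overlapping groups, and the 17 called genes all lie to the right of 0.

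Genes of mitosis were divided. Of 42 tested, 6 were called higher and 5 lower in PDS controls, against 1.59% higher and 4.50% lower of all tested genes. The median log2 difference was -0.02. The higher genes included Ube2c, which hands ubiquitin to mitotic substrates (71.3, 77.1 and 75.8 CPM against 60.5, 53.5 and 58.8 CPM). Its groups did not overlap, and the log2 difference was 0.38 (SE 0.07, adjusted p = 0.0155). Kif22, a chromosome motor, differed by 0.38, Plk1, a mitotic kinase, by 0.31, and Cdk1, the kinase that drives entry into mitosis, by 0.24. The lower genes were the motors Kif15 (-0.65) and Kif20b (-0.93), the kinetochore protein Cenpf (-0.82), the checkpoint kinase Ttk (-0.58) and the proliferation marker Mki67 (-0.64). Mki67 was at 29.5, 19.6 and 27.3 CPM in PDS controls and 40.6, 44.9 and 33.5 CPM in Phen-DC3 controls, without overlap (adjusted p = 0.0476).

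The 6 mitotic genes called higher had gene models of 873 to 2896 bp and the 5 called lower had gene models of 3382 to 10069 bp. After a correction of each library for its trend with gene length, 4 were called higher and 1 lower, against 1.28% and 2.02% of all tested genes. Kif15 was then at -0.50 (adjusted p = 0.0343), Mki67 at -0.32 (adjusted p = 0.163) and Cdk1 at 0.18 (adjusted p = 0.123). Leaving out PDS control 2 or Phen-DC3 control 2 removed all of these calls in edgeR, and the unadjusted p was then under 0.05 for 8 higher and 9 lower, or 10 higher and 10 lower, genes. Without PDS control 3 the calls were 3 and 2, without Phen-DC3 control 1 they were 1 and 1, and without Phen-DC3 control 3 they were 7 and 13.

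Several lists held calls only on the lower side in PDS controls. Of 27 tested fibrillar and interstitial matrix genes 3 were called lower, of 25 genes of TGF-beta signalling 3, of 16 complement genes 5, of 14 chemokines 3, of 29 growth factor ligands 4 and of 18 iron handling genes 3, against 4.50% of all tested genes. None of these lists held a gene called higher. Of the other matrix lists, matrix enzymes and inhibitors had 3 of 34 called lower, cartilage-type matrix 1 of 20 and basement membrane 0 of 17, where edgeR gave 4 genes an unadjusted p under 0.05. None of the 3 lists had an edgeR call higher. For basement membrane DESeq2 called 0 genes and limma voom 1 higher and 2 lower. After the length correction the counts lower were 3 for fibrillar matrix, 3 for TGF-beta signalling, 1 for complement, 2 for chemokines, 3 for growth factor ligands, 2 for iron handling and 0 for matrix enzymes. The medians over the members were -0.04 for fibrillar matrix, -0.12 for TGF-beta signalling, -0.24 for complement, -0.09 for chemokines, -0.19 for growth factor ligands and -0.16 for iron handling.

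Among TGF-beta genes, Inhba, which encodes the subunit of activin A, was at 22.6, 15.96 and 21.7 CPM in PDS controls and 34.6, 45.4 and 28.7 CPM in Phen-DC3 controls. PDS control 2 was the lowest and Phen-DC3 control 2 the highest, the groups did not overlap, and the log2 difference was -0.85 (SE 0.17, adjusted p = 0.0189). Skil, a nuclear repressor of SMAD signalling that TGF-beta itself induces, was at 20.1, 15.4 and 18.1 CPM against 27.8, 30.2 and 25.6 CPM, a difference of -0.64 (adjusted p = 0.0189). Tgfbr1, the type I receptor, differed by -0.42 (adjusted p = 0.0233) and by -0.22 after the length correction (adjusted p = 0.13).

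Lum, lumican, a small proteoglycan that binds collagen fibrils, was at 180, 142 and 196 CPM in PDS controls and 321, 299 and 222 CPM in Phen-DC3 controls. Phen-DC3 control 3 was the nearest to the PDS controls, and the log2 difference was -0.70 (SE 0.15, adjusted p = 0.0189). Dcn, decorin, a second small proteoglycan of the same family, was at 243, 209 and 259 CPM against 346, 362 and 271 CPM, a difference of -0.46 (adjusted p = 0.0218). Postn, periostin, a matrix protein of loaded connective tissue, was at 35.0, 26.2 and 30.5 CPM against 42.9, 46.8 and 45.8 CPM, a difference of -0.56 (adjusted p = 0.0189). All 3 were also called after the length correction. Vcan, versican, a large proteoglycan, was called lower (-0.68, adjusted p = 0.0416), but its groups overlapped, and after the length correction the difference was -0.31 (adjusted p = 0.0875).

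The complement protease C1s was at 614, 595 and 625 CPM in PDS controls and 758, 760 and 724 CPM in Phen-DC3 controls. The groups did not overlap and the log2 difference was -0.29 (SE 0.07, adjusted p = 0.0227). The collectin Colec12, at -0.31, the central complement component C3, at -0.26, and the surface inhibitor Cd55, at -0.59, were also called. The groups overlapped in Cd55. After the length correction these 4 genes did not pass the test, with adjusted p of 0.053 for C1s, 0.0571 for Colec12, 0.372 for C3 and 0.0563 for Cd55. Ceruloplasmin, Cp, an oxidase that loads iron on transferrin, was at 75.3, 64.5 and 72.8 CPM against 119, 127 and 93.4 CPM, a difference of -0.68 (SE 0.12, adjusted p = 0.0146). Slc39a8, a metal importer, differed by -0.50, and Ireb2, an iron-sensing regulator of translation, by -0.43. The groups of Ireb2 overlapped, and it was not called after the length correction (adjusted p = 0.0698).

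The chemokine Cxcl6, which draws neutrophils, was at 966, 824 and 985 CPM in PDS controls and 1376, 1359 and 1102 CPM in Phen-DC3 controls, without overlap and with a log2 difference of -0.47 (SE 0.10, adjusted p = 0.0189). Ccl20, which draws lymphocytes and dendritic cells, differed by -0.40, and Cxcl12 by -0.26, both called. After the length correction Cxcl12 was at -0.08 (adjusted p = 0.527), while Cxcl6 and Ccl20 were still called. The growth factor Kitlg, the ligand of KIT, was at 34.4, 24.5 and 36.4 CPM against 60.2, 62.0 and 42.9 CPM, a difference of -0.79 (adjusted p = 0.0189). Angpt1, the ligand of the TIE2 receptor, differed by -0.71, Fgf7, a growth factor for epithelium, by -0.51, and Hgf, the ligand of MET, by -0.87, which after the length correction was -0.67 (adjusted p = 0.0738). In these genes PDS control 2 was the lowest of the 3 PDS controls and Phen-DC3 control 3 the lowest of the 3 Phen-DC3 controls.

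With edgeR, none of these 6 lists held a call when PDS control 2, Phen-DC3 control 1 or Phen-DC3 control 2 was left out. At an unadjusted p under 0.05, complement then had 7, 5 and 5 lower genes, in that order, growth factor ligands 7, 5 and 7, and TGF-beta signalling 9, 4 and 8. For fibrillar matrix the counts were 11, 5 and 10, for chemokines 4, 3 and 3, and for iron handling 8, 5 and 4. Without Phen-DC3 control 3 the calls lower became 10 for fibrillar matrix, 8 for TGF-beta signalling, 7 for complement, 3 for chemokines, 5 for growth factor ligands and 4 for iron handling. Without PDS control 3 complement held 2 calls, and without PDS control 1 fibrillar matrix held 5.

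**Figure D3:**
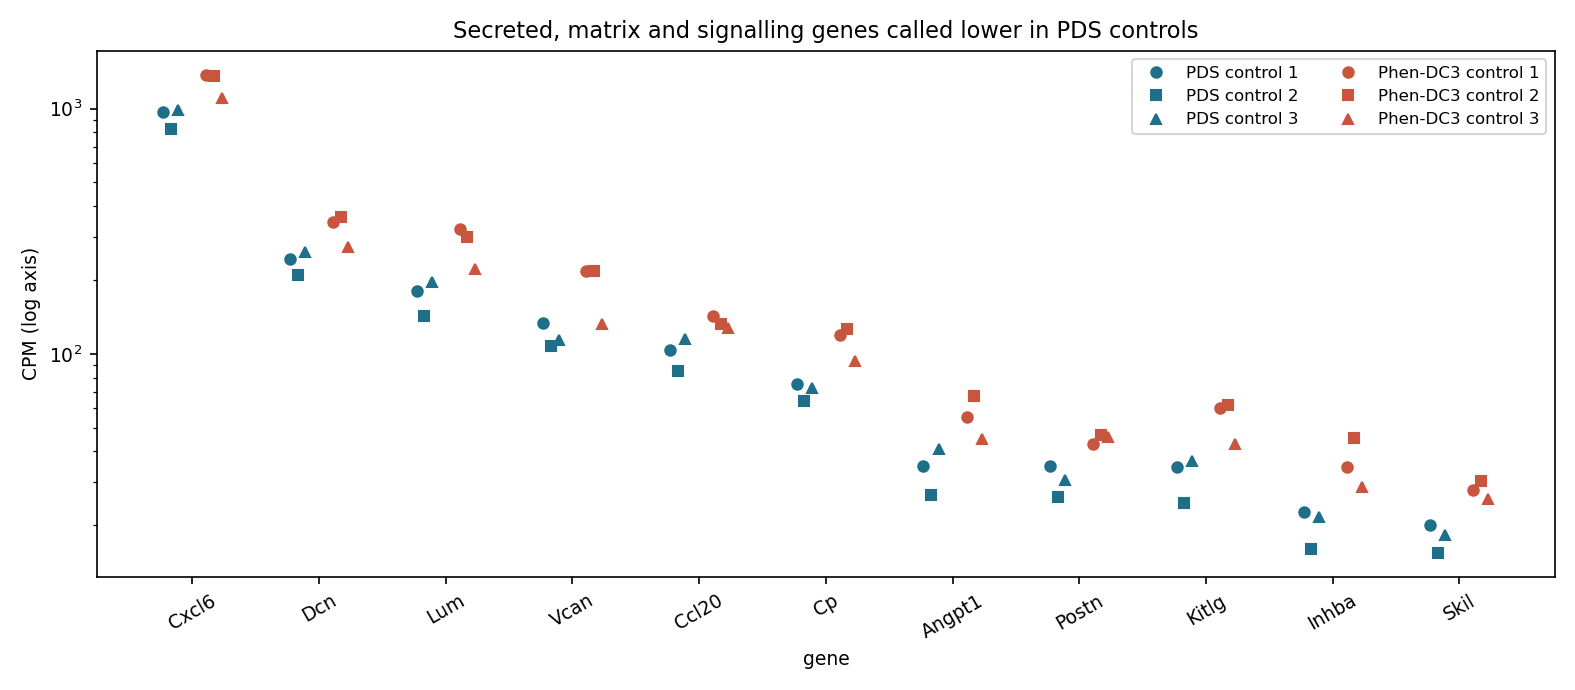
CPM on a log axis of 11 genes called lower in PDS controls, in each PDS control (blue) and Phen-DC3 control (red) library, with symbols for the replicate number. Phen-DC3 control 3 (red triangles) lies nearest to the PDS controls in most of the genes, as for Lum at 222 CPM against 299 and 321 in the other Phen-DC3 controls, and Vcan is the gene whose groups overlap.

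The share of counts in genes longer than 5000 bp was lower in PDS controls. It was 9.08%, 8.92% and 7.98% in PDS controls 1 to 3 and 10.7%, 9.97% and 9.26% in Phen-DC3 controls 1 to 3, or 8.66% ± 0.594 against 9.99% ± 0.737 (SD, n = 3 each). The groups did not overlap, and the exact permutation test gave a two-sided p of 0.1, the smallest that 3 against 3 allows. The median log2 difference fell from 0.13 in genes of 500 to 1000 bp to -0.32 in genes over 10000 bp. The share of genes called lower was 1.05% in the first of these length classes and 19.7% in the second. Across tested genes Spearman's rho between the log2 difference and gene length was -0.32, a description over genes that share the same 6 libraries. Genes called lower had a median length of 4094.5 bp, genes called higher 1582.5 bp and all tested genes 2248 bp. Of the 638 genes called lower 227 (35.6%) were longer than 5000 bp, and of the 226 called higher 3 were.

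PDS control 3 and Phen-DC3 control 1 were the libraries at the ends of the length trend. Genes over 10000 bp deviated from the mean of the 6 libraries by a median of -0.27 in PDS control 3 and 0.30 in Phen-DC3 control 1 on the log2 scale, while PDS control 1 and Phen-DC3 control 3 both lay at -0.03. With each library corrected for its trend, edgeR called 182 genes higher (1.28%) and 286 lower (2.02%), together 3.30% of tested genes, of which 111 and 273 were among those called without it. The part of gene length in the single differences was not tested further.

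**Figure D4:**
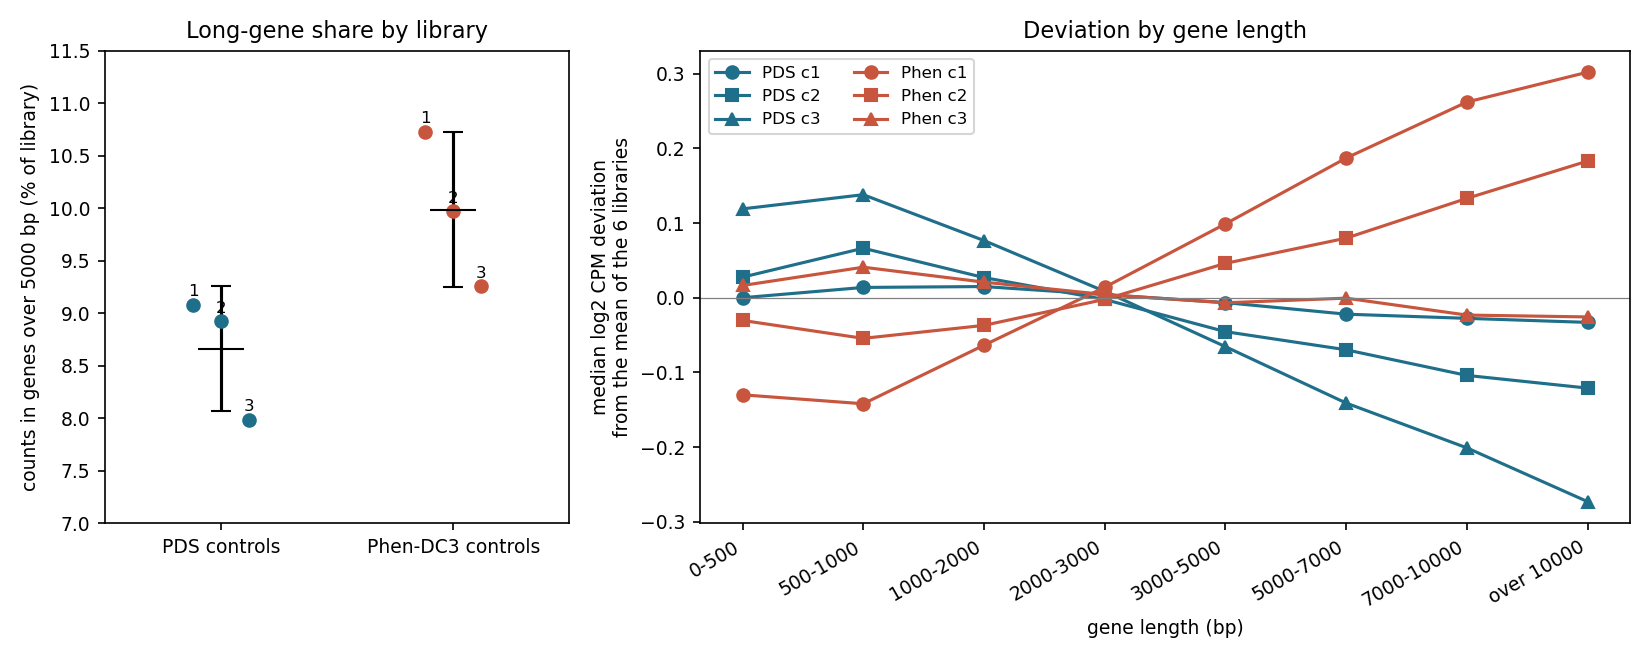
Left: share of counts in genes over 5000 bp in each control library (numbers give the replicate, lines the mean and SD of 3). Right: median log2 deviation of each library from the mean of the 6 by class of gene length. Phen-DC3 control 1 rises to 0.30 and PDS control 3 falls to -0.27 in the longest genes, while PDS control 1 and Phen-DC3 control 3 stay at -0.03.

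The named genes with the largest lower levels in PDS controls were mostly long. Vps13a, a lipid transport protein at membrane contact sites with a gene model of 7005 bp, was at 1.81, 1.65 and 1.98 CPM in PDS controls and 5.55, 4.85 and 2.45 CPM in Phen-DC3 controls. The groups did not overlap, Phen-DC3 control 3 was nearest to the PDS controls, and the log2 difference was -1.23 (SE 0.26, adjusted p = 0.0189). Pcm1, which organises centriolar satellites, was at 13.9, 8.66 and 14.5 CPM against 31.4, 34.9 and 19.6 CPM, a difference of -1.21 (adjusted p = 0.0189). Rictor, the defining subunit of the TORC2 kinase complex, differed by -1.10, Thoc2, of the mRNA export complex THO, by -1.04 and Pik3c2a, a lipid kinase, by -1.02. After the length correction Vps13a was at -0.98 (adjusted p = 0.0234), Pcm1 at -0.95 (adjusted p = 0.0226) and Rictor at -0.90 (adjusted p = 0.0564). Without Phen-DC3 control 2 or PDS control 2 none of these 5 was called.

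Among the named genes with the largest higher levels, Lmo1, a transcription cofactor with LIM domains, was at 32.7, 34.0 and 37.2 CPM in PDS controls and 21.3, 20.9 and 25.4 CPM in Phen-DC3 controls. Its groups did not overlap and the log2 difference was 0.62 (SE 0.12, adjusted p = 0.0162). Fabp5, a fatty acid carrier, was at 159, 161 and 167 CPM against 91.0, 115 and 135 CPM (0.51, adjusted p = 0.0266). Tonsl, a factor of replication fork repair, differed by 0.57, and Lfng, a glycosyltransferase that modifies Notch, by 0.53. After the length correction Lfng was not called, while Lmo1, Fabp5 and Tonsl were. The immediate early transcription factor Egr1 was at 14.7, 15.96 and 15.9 CPM against 10.8, 11.4 and 10.8 CPM, a difference of 0.49 (adjusted p = 0.0178). Rps27a (1.00), Rpl37 (0.64) and Cox6b1 (0.67) also ranked among the largest, but their families have near-identical gene copies among which reads could be split, and their values are uncertain. The table holds another gene with the symbol Rps27a, at -0.33, and another with the symbol Cox6b1, at 0.34, neither of them called.

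Short genes of the ribosome and of respiration were on the higher side. Of 73 genes for cytosolic ribosomal proteins 10 were called higher and the other 63 were not called, against 1.59% of all tested genes called higher. Their median log2 difference was 0.22. Rplp0, a protein of the ribosomal stalk, was at 3767, 4169 and 4127 CPM in PDS controls and 2908, 3258 and 3363 CPM in Phen-DC3 controls, without overlap (0.34, adjusted p = 0.0165). Of 60 nuclear genes for oxidative phosphorylation 7 were called higher, with a median of 0.22, and Cox5a, a subunit of cytochrome c oxidase, differed by 0.38 (adjusted p = 0.0189). After the length correction 4 ribosomal and 3 respiratory genes were called higher, against 1.28% of all tested genes, and the medians were 0.12 and 0.13. Without PDS control 2 or Phen-DC3 control 2 neither list held an edgeR call, and 29 and 25 ribosomal and 20 and 20 respiratory genes had an unadjusted p under 0.05. Without Phen-DC3 control 3 the calls were 23 and 18, without Phen-DC3 control 1 they were 0 and 0 with 24 and 11 at an unadjusted p under 0.05, and without PDS control 3 they were 1 and 0 with 15 and 12.

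The 13 mRNAs encoded by the mitochondrial genome lay the other way. All 13 log2 differences were negative, with a median of -0.56, and Mt-atp6, a subunit of ATP synthase, was the 1 called (-0.67, adjusted p = 0.0447). It was at 1082, 720 and 1056 CPM in PDS controls and at 1717, 1744 and 1101 CPM in Phen-DC3 controls. Phen-DC3 control 3 lay just above the highest PDS control, so the groups did not overlap. Mitochondrial mRNA took 2.61%, 2.02% and 2.51% of the counts in PDS controls and 3.56%, 3.28% and 2.43% in Phen-DC3 controls. The groups overlapped in this share because Phen-DC3 control 3 lay among the PDS controls, and the exact permutation test gave p = 0.3. Without Phen-DC3 control 3, 10 of the 13 were called lower. Without PDS control 2, PDS control 3, Phen-DC3 control 1 or Phen-DC3 control 2 none was called, with 2, 8, 1 and 3 at an unadjusted p under 0.05.

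Smaller groups of metabolic genes followed. Of 39 genes of the NRF2 and antioxidant list 4 were called higher, against 1.59% of all tested genes, among them Gss, which makes glutathione (0.27), and the peroxiredoxins Prdx2 (0.22) and Prdx6 (0.21). Of 34 genes of the integrated stress response and amino acid metabolism, 3 were called higher, Psat1 (0.35) and Shmt2 (0.31), which make serine and glycine, and the glutamine transporter Slc1a5 (0.38), and 1 was called lower. After the length correction none of the NRF2 list was called, with Prdx2 at 0.10 (adjusted p = 0.358) and Gss at 0.25 (adjusted p = 0.053). In the hypoxia and glycolysis list 1 of 46 was called higher and 3 lower, near the shares of all tested genes (1.59% and 4.50%). Hif1a, the oxygen-regulated subunit of the hypoxia factor, was at 220, 163 and 212 CPM in PDS controls and 323, 310 and 236 CPM in Phen-DC3 controls (-0.55, adjusted p = 0.0421), and at -0.43 (adjusted p = 0.0592) after the length correction. Without PDS control 2, PDS control 3, Phen-DC3 control 1 or Phen-DC3 control 2 these 3 lists held no edgeR call. The members at an unadjusted p under 0.05 were then 6 to 9 higher and 1 or 2 lower for NRF2, 6 or 7 higher and 1 to 3 lower for the stress response, and 6 higher and 4 to 7 lower for hypoxia. Without Phen-DC3 control 3 the calls higher and lower were 5 and 3, 5 and 4, and 8 and 8, and without PDS control 1 they were 2 and 1, 2 and 2, and 0 and 2.

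Of 52 gene lists with a tested member, 8 held calls only on the higher side, 19 only on the lower side, 6 on both sides and 19 none. The disc and degeneration genes taken whatever their values were mostly not called. Col2a1, the collagen of cartilage and nucleus pulposus, was at 17.3, 18.4 and 16.3 CPM in PDS controls and 19.4, 20.5 and 19.3 CPM in Phen-DC3 controls, a log2 difference of -0.19 (95% interval -0.50 to 0.13). Sox9, its activator, differed by -0.03 (95% interval -0.34 to 0.27) and Col1a1 by -0.06 (95% interval -0.31 to 0.19). Mmp3, a matrix metalloproteinase, was at 2554.5, 2696 and 2702 CPM against 3185, 3034 and 2768 CPM, a difference of -0.18 that did not pass the test (adjusted p = 0.181). Mmp13, a collagenase, differed by -0.46 (95% interval -0.93 to 0.02), the aggrecanase Adamts5 by -0.21 (95% interval -0.40 to -0.02), and Il6, an inflammatory cytokine, by -0.50 (95% interval -0.95 to -0.05). The intervals of Mmp13 and Il6 are wide enough to hold differences as large as those of called genes. Cdkn1a, the p53-induced inhibitor of cyclin-dependent kinases, differed by 0.13 (95% interval -0.02 to 0.28), and Acta2, the smooth muscle actin, by 0.00 (95% interval -0.25 to 0.26). The edgeR test called 0 of 35 genes of NF-kB signalling and inflammation, 0 of 22 of antigen presentation and 0 of 14 nucleus pulposus markers, with 9, 5 and 3 at an unadjusted p under 0.05. DESeq2 called 4 of each of the first pair of lists and none of the markers, and limma voom with library weights called 5, 3 and 0.

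The remaining untreated group, whose titles name no compound, was farther from both. Root mean squared log2 differences were 0.35 to 0.54 between PDS and Phen-DC3 control libraries, 1.03 to 1.15 between PDS controls and this group, and 0.90 to 1.06 between Phen-DC3 controls and this group. It differed from PDS controls in 10398 genes (73.3%) and from Phen-DC3 controls in 9860 (69.5%). These 2 comparisons share the third control group, so their values are given side by side. Genes over 5000 bp took 25.1%, 25.4% and 25.3% of its counts. Of the 226 genes called higher in PDS controls, its mean CPM was below both groups in 165, between them in 20 and above both in 41. Of the 638 called lower, its mean was above both in 548, between them in 57 and below both in 33. The place of this group was not counted over all tested genes. These numbers therefore have no background share beside them and are not read as a trait of the called genes. Mcm6 was at 136, 135 and 143 CPM there, 0.10 above PDS controls (adjusted p = 0.135) and 0.50 above Phen-DC3 controls (adjusted p = 3.82e-07) on the log2 scale. Lum was at 206, 172 and 180 CPM there, 0.11 above PDS controls (adjusted p = 0.513) and -0.59 relative to Phen-DC3 controls (adjusted p = 0.00166). Inhba was at 319, 299 and 309 CPM, far above both groups, with log2 differences of 3.94 and 3.09.

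The same arms were also compared in their treated libraries, where the arms differ by compound as well. The treated libraries do not enter the group means of the control comparison. They do enter its gene filter, scaling and shared spread, so the calls of both comparisons are not independent. PDS was higher than Phen-DC3 in 1280 genes (9.02%) and lower in 869 (6.13%). Of the 226 genes higher in PDS controls, 48 (21.2%) were also called higher with PDS and 8 (3.54%) were called lower. Of the 638 genes lower in PDS controls, 24 (3.76%) were also called lower with PDS and 65 (10.2%) were called higher. The treated difference had the sign of the control difference in 55.3% of the first set and 26.8% of the second, against 51.3% positive and 48.7% negative over all tested genes. The trend with gene length was opposite in the treated libraries, with Spearman's rho of 0.279 across genes. Genes over 5000 bp took 8.35%, 8.74% and 8.91% of the counts with PDS and 7.42%, 8.11% and 8.43% with Phen-DC3.

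Of the 17 replication genes called between controls, 16 had a positive difference between treated libraries and 11 were called higher with PDS, and of the 48 members 27 were, against 9.02% of all tested genes. Other lists varied in whether they kept the pattern seen between controls. Complement had 0 called higher and 3 lower of 16 with PDS, and iron handling 1 higher and 6 lower of 18. The shares of all tested genes were 9.02% higher and 6.13% lower. Fibrillar matrix (8 higher and 3 lower), TGF-beta signalling (9 and 3), chemokines (5 and 2) and growth factor ligands (6 and 4) had more called higher than lower. Of the 42 genes of mitosis, divided between controls, 39 were called higher with PDS and 0 lower. Ribosomal proteins had 13 called lower and 0 higher with PDS, and nuclear oxidative phosphorylation 12 lower and 0 higher, against 6.13% of all tested genes lower. Mcm6 differed by 0.35 between treated libraries (adjusted p = 0.000603), Mcm5 by 0.39 (adjusted p = 0.00283), Cdc45 by 0.48 (adjusted p = 0.0107) and Uhrf1 by 0.60 (adjusted p = 4.56e-05). Tk1 and Pold1 did not pass the test there, at -0.01 and 0.02. Of the genes lower in PDS controls, Cxcl6 (-0.57, adjusted p = 0.000867), C1s (-0.48), Cxcl12 (-0.76) and Angpt1 (-0.62, adjusted p = 0.0273) were also lower with PDS. Inhba (0.52, adjusted p = 0.043), Skil (0.47, adjusted p = 0.0221) and Mki67 (1.01, adjusted p = 0.00169) were lower between controls and higher between treated libraries. In all, 72 genes were called the same way in both. Without PDS control 2 this number was 4, without PDS control 3 it was 31, without Phen-DC3 control 1 it was 16, and without Phen-DC3 control 3 it was 144. Without Phen-DC3 control 2 it was 0, since no gene was then called between controls. Leaving out PDS-treated library 1 or 2, or Phen-DC3-treated library 2, gave 45, 46 and 47.

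**Figure D5:**
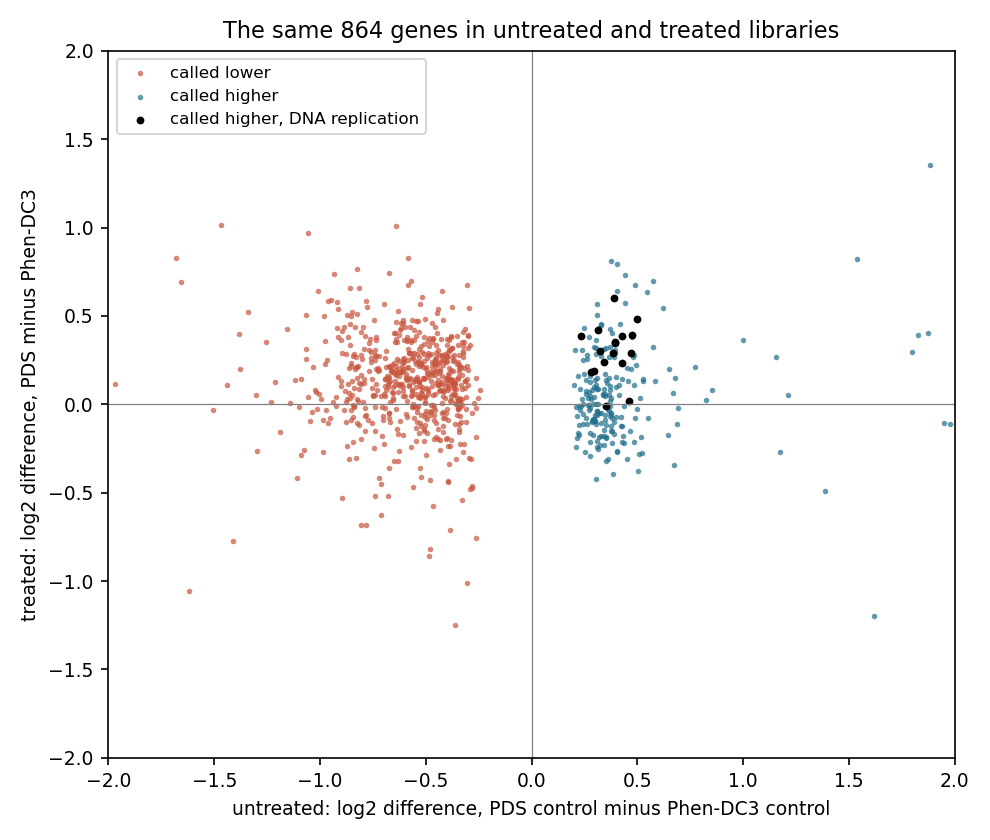
Log2 difference between PDS and Phen-DC3 controls (horizontal) and between PDS-treated and Phen-DC3-treated libraries (vertical) for the 864 genes called between controls, with 6 genes outside the axes. Blue points are called higher, red points called lower and black points are the 17 called replication genes, of which 16 lie above 0 on the vertical axis, while most genes called lower also lie above 0 there.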

How the data were processed

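The 6 control libraries were read from the deposited table of raw counts per gene of all 18 libraries (33898 genes), which the authors made with CASAVA, HISAT2 and featureCounts 1.5.0-p3, per the submitters' processing notes. Genome build, annotation release and strand setting were not given in the sources used here, so reads of overlapping or antisense genes cannot be told apart. Deposited totals were 15715121 to 18369443 counts. Reads have no molecular identifiers, so counting error is a lower limit.

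Counts were analysed with edgeR 4.0.16 and limma 3.58.1 in R 4.3.3. filterByExpr by group left 14184 genes, of which 702 have no Ensembl identifier. After TMM scaling, a robust quasi-likelihood model with a mean for each of the 6 groups was fitted to all 18 libraries (12 residual degrees of freedom), and the contrasts were tested two-sided with Benjamini-Hochberg adjustment over all tested genes and a threshold of 0.05. Standard errors come from the F statistics. The length correction is a lowess offset (span 0.3) of each library's log2 CPM deviation on log2 gene length. DESeq2 1.42.0, limma voom with library weights, other scalings, filters and sets of libraries, and leaving out each library were alternatives.

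The 6 libraries were chosen by label alone. Earlier results of these data were known when they and the 53 gene lists were chosen. Named genes are the 12 higher and 12 lower called genes with the largest differences (groups without overlap, a symbol, and 3 or more on the mean log2 CPM scale), the called list members of smallest p, at most 3 a list, and some disc and stress genes taken whatever their values. Other members named (the rest of the replication and mitosis genes, C3, Cd55, Hgf, Slc1a5 and Fam50a among them) were chosen after their values were seen. Promoters were matched by symbol to RefSeq sequences of build GRCr8, and 39 of 48 replication genes had one. Braco-19 libraries enter the shared spread only. A few list members are not reported here by name.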

Additional observations from a re-analysis of the deposited data

How the results depend on the processing

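The counts of calls did not hold over the settings. The direction of each called named gene held in all 22, which the choice of called genes, mostly without overlap, made likely beforehand. Of the named genes that were not called, Sox9, Col1a1, Col3a1, Acta2, Myc and Cxcl10 changed sign in some of these settings, as did Acan, which was tested in 17 of them. Between PDS and Phen-DC3 controls, leaving out 1 control library gave 0 to 1058 genes higher and 0 to 1682 lower. DESeq2 called 577 higher and 1029 lower, and limma voom with library weights called 1183 and 1676. The 6 libraries alone gave 2 and 1, also with the length correction, and none of these genes was called in the main fit. The 9 untreated libraries gave 21 and 111. Chosen after seeing the data, 12 libraries without the remaining control group and Braco-19 gave 50 and 56, or 27 and 21 with the length correction. The length correction gave 182 higher and 286 lower. Against a minimum log2 difference of 1, edgeR called 0 and 0, with 59 genes at an unadjusted p under 0.05. Of the calls, 73.8% were lower in the main fit, 61.1% after the length correction, 58.6% with voom, 64.1% with DESeq2. With 12 libraries it was 52.8%, with these and the length correction 43.8%, and with the 6 libraries alone 33.3%. Among the fits with 1 control library left out and any call, it ran from 22.2% without PDS control 2 to 84.7% without PDS control 3. Leaving out PDS-treated library 2, which enters through the shared spread, gave 145 higher and 437 lower. RLE, upper-quartile and filter alternatives stayed within 1.5 times. Against the remaining control group, the minimum change left 3342 genes for PDS controls and 2182 for Phen-DC3 controls. Genes called the same way in treated libraries numbered 115 with DESeq2, 288 with voom, 46 with the length correction and replicate block, 24 with 12 libraries, 15 with these and the length correction, 0 with the minimum change, and 0 to 144 with 1 library left out. The difference in long-gene share was -1.69 to -0.95 percentage points with 1 library left out, -2.73 over 3000 bp and -0.095 over 10000 bp.

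No label says whether replicate numbers pair these libraries. Deviations of same-numbered libraries from their group means correlated at 0.10, -0.13 and 0.03. Those of differently numbered libraries correlated at -0.17 to 0.14. With 3 libraries in each group these values cannot decide on pairing. With the replicate block, 149 genes were higher and 444 lower, with block and length correction 122 and 222, and with the replicate block in the 6 libraries 10 and 5. Depth limits the genes under 3 on the log2 CPM scale, where most log2 differences beyond 1 lie. The smaller fits also hold fewer libraries, and the causes of these changes were not tested.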

Other observations

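The largest positive difference between the controls was that of Fam50a, a nuclear protein, with a log2 difference of 4.42 (adjusted p = 0.035). It was at 20.4, 0.65 and 24.8 CPM in PDS controls 1 to 3 and at 0.50, 0.61 and 0.99 CPM in Phen-DC3 controls 1 to 3, so that PDS controls 1 and 3 were high and PDS control 2 lay among the Phen-DC3 controls. In the remaining untreated group it was at 3.73, 0.95 and 0.31 CPM. The gene was singled out after its values were seen.

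Prrx1, a transcription factor of limb and skeletal mesenchyme, was at 112, 101 and 113 CPM in PDS controls and 124, 137 and 140 CPM in Phen-DC3 controls (log2 difference -0.29, adjusted p = 0.022). Its gene model is 862 bp long, and the difference was -0.41 after the length correction (adjusted p = 0.0117). With PDS it was also lower than with Phen-DC3 (-0.31, adjusted p = 0.00491).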
